A study of Bos taurus with 12 samples.

Results

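Endometrial biopsies taken 14 days after povidone-iodine was put into the uterus were set against biopsies taken from the same cows on day 7. Povidone-iodine (PVP-I) is an antiseptic that releases iodine. The comparison set 3 arrays of day 14 against 3 of day 7, 6 of 12 in all. They were chosen by the sample titles over the columns of the deposited value table and paired by cow. The test itself was fitted to all 12 arrays, so its standard errors and p-values also rest on the spread of days 0 and 2. The whole study held 3 cows described as fertile, each biopsied on days 0, 2, 7 and 14, and total RNA of every biopsy went onto 1 single-colour (cyanine-3) Agilent bovine array. Day 14 and day 7 therefore share the cow and the treatment and differ in the days since treatment and in the number of biopsies taken before. The biopsies came in turn from the left and the right uterine horn, and no untreated cow is among the samples. Which horn a sample came from and the stage of the oestrous cycle are not given in the sources used here. With 3 cows, a shift between days therefore carries treatment, time, cycle stage and repeated biopsy together, which cannot be told apart.

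The endometrium is the lining of the uterus, made of a luminal and glandular epithelium on a stroma of fibroblasts, vessels and immune cells. After chemical injury such a lining sheds epithelium, draws in leukocytes, lays down and cuts matrix, and regrows its surface. Mucins coat the epithelial surface, beta-defensins are small cationic peptides that kill bacteria, and complement and acute phase proteins mark and bind microbes. In cattle the endometrium also follows the ovarian hormones over the cycle, with its own secretory proteins under oestrogen and progesterone.

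Levels are log2 processed intensities relative to the 75th percentile of the same array, called log2 signal here, and values of 3 cows stand in the order cow 1, cow 2, cow 3. The 75th percentile lay between 825 and 1118 intensity units, and 63.2 to 76.0% of probes were well above background by the scanner software's own call. On day 14 that share was 73.9, 76.0 and 72.9%, against 72.3, 71.3 and 72.0% on day 7, and no probe was saturated. The number of arrays limits the precision. The scanner files and the value table named different samples for 10 of 12 arrays, and all results below follow the table. Under the table's names each slide holds 1 cow and each day has a fixed position on the slide, so cow and slide cannot be told apart, nor can day and position. Markers of the labelled tissue were present. All 13 epithelial markers tested and all 11 stromal fibroblast markers tested were well above background on all 6 arrays. So were 11581 of all 12906 genes tested, so these counts say little about the tissue.

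Few genes passed the test between day 14 and day 7. More fell than rose, and the falls included a mucin gene, a beta-defensin gene, a cell cycle inhibitor gene, a metal importer gene and an inhibitory antibody receptor gene. The 6 genes that rose included ERP27, PACSIN1 and RGS11. In limma, with the cow as block and adjustment over all 33539 probes, 49 probes passed an adjusted p of 0.05 (0.146% of those tested), of which 16 rose (0.0477%) and 33 fell (0.0984%). Taking the brightest probe of each symbol as the gene, 18 of 12906 genes passed (0.139%), 6 of them higher (0.0465%) and 12 lower (0.093%). All 49 probes moved the same way in 3 of 3 cows, as did 14103 of all 33539 probes tested (42.0%). The changes of the 49 ran from 1.06 to 6.82 on the log2 scale in size. Where the days are said below not to overlap, this only describes the values. The share of all genes without overlap was not counted. The calls lay close to the threshold, with adjusted p from 0.0188 to 0.0499, and 168 probes (0.501%) lay under 0.055. With only the 6 arrays of days 7 and 14 in the fit, limma called 0 probes (smallest adjusted p 0.143). Without cow 1, and likewise without cow 2, limma called 0 probes, while 2351 and 3437 probes had an unadjusted p under 0.05. Leaving cow 3 out gave 142 calls, and 18 of these were among the 49. With the samples that the scanner files are linked to, 215 probes were called and 0 were among the 49.

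**Figure D1:**
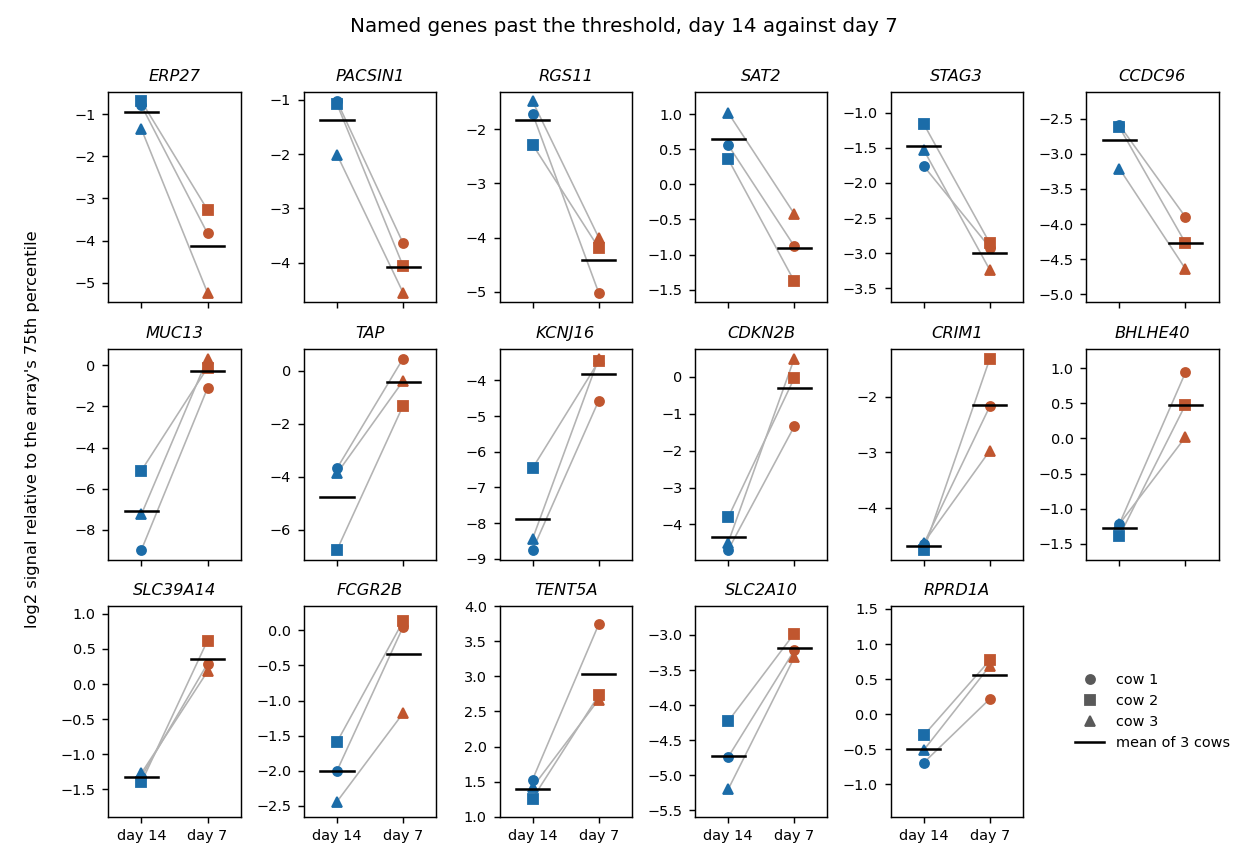
Log2 signal relative to the array's 75th percentile (vertical axes, one scale per gene) of the 17 named genes past the threshold, on day 14 (left, blue) and day 7 (right, orange); markers are cows, grey lines join a cow's samples and black bars are means of 3 cows. In each panel the 3 values of day 14 do not overlap those of day 7, which largely follows from the choice of these genes by the test.

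Among the genes past the threshold the largest fall was that of MUC13, which codes for a transmembrane mucin of epithelial surfaces. Its log2 signal was -8.98, -5.12 and -7.25 on day 14, against -1.11, -0.12 and 0.33 on day 7. The groups lay far apart, and cow 2 kept the highest level on day 14. The change was -6.82 ± 0.78 (SE, n = 3 cows, adjusted p = 0.0357, limma), and 1 of 3 day 14 arrays and 3 of 3 day 7 arrays measured the probe well above background. With normexp background correction and quantile normalization the change was -3.72. The array holds 2 more probes described as MUC13, and both fell as well. The probe listed as TC312837, above background on all 6 arrays, had -4.52, -1.43 and -3.53 on day 14, against 2.54, 3.51 and 3.92 on day 7 (change -6.48 ± 0.70, adjusted p = 0.0357). The probe listed as ENSBTAT00000013702 was above background on no array of day 14, so only a bound holds: it was at least 9.62-fold lower on day 14 (adjusted p = 0.0209). Over all 4 days TC312837 averaged -1.73, 0.72, 3.32 and -3.16 on days 0, 2, 7 and 14. The 3 probes are shown because they are different stretches of the same locus, so that the fall does not rest on 1 oligonucleotide. They lie on the minus strand of build Btau_3.1 (per the file headers) at chr1:70511055-70511114, chr1:70510366-70510425 and chr1:70521652-70521711, in that order. No letters are in capitals, since no shared run was sought among them.
MUC13: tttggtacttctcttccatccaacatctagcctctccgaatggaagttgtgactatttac
TC312837: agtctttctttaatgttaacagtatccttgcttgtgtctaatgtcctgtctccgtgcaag
ENSBTAT00000013702: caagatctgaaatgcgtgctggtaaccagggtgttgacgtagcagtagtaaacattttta

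TAP, the tracheal antimicrobial peptide gene of the beta-defensin family, had the next largest fall among the called genes. It had -3.69, -6.77 and -3.88 on day 14, against 0.46, -1.32 and -0.39 on day 7. Every day 14 value lay below every day 7 value, and cow 2 had the lowest level on both days. The change was -4.37 ± 0.51 (adjusted p = 0.0357), with 2 of 3 arrays of day 14 above background. A further TAP probe was above background on no array of day 14 and was at least 4.56-fold lower (adjusted p = 0.0467). TAP averaged -5.72 on day 0 and -4.04 on day 2, in the same units. The probes are printed because beta-defensin genes are alike in sequence and a probe may bind more than its own transcript. Capitals mark the longest run that a probe shares with a probe named for another beta-defensin gene on the array. For TAP that run was 9 bases in the brighter probe (with DEFB4A) and 16 bases in the other (with a DEFB7 probe not printed). The same 9 bases also stand in the DEFB7 and EBD probes printed below. Only exact runs were sought, so stretches that match with a few differing bases are not marked. The brightest probe of DEFB7 and 1 of the probes of EBD, both beta-defensin genes, share 52 bases, so these signals cannot be told apart. They lie on Btau_3.1 at chr27:6127923-6127982 and chr27:6127986-6128045 (TAP, minus strand), chr27:7372716-7372775 (DEFB7, minus strand) and chr27:7569347-7569406 (EBD, plus strand).
TAP, brighter probe: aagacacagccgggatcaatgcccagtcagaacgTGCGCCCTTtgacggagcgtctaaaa
TAP, other probe: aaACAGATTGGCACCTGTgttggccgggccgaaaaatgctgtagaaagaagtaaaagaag
DEFB7: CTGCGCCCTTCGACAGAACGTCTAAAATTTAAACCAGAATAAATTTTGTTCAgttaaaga
EBD: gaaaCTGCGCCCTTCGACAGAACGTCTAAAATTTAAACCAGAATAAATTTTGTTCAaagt

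The probes of DEFB7 and EBD did not pass the test. DEFB7 by its brightest probe had -4.30, -2.99 and -5.41 on day 14, against -0.51, -1.20 and -2.84 on day 7 (change -2.72, adjusted p = 0.0592). The other DEFB7 probe tested, whose longest shared run was 16 bases (with TAP), had a change of -1.06 (adjusted p = 0.249). The EBD probe printed here had a change of -2.82 (adjusted p = 0.0694), and the other 3 EBD probes ranged from -2.90 to -1.87. Some other beta-defensin probes lay near 0. LAP had a change of 0.17 (adjusted p = 0.898), and the probes of DEFB4A had changes from -0.13 to -0.03. The low change of these genes and the fall of TAP stand side by side here, and the difference between the genes was not tested.

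CDKN2B codes for p15, an inhibitor of the cyclin-dependent kinases that start the cell cycle. It had -4.69, -3.81 and -4.49 on day 14, against -1.34, -0.03 and 0.50 on day 7. The days did not overlap, and cow 1 had the lowest level on both. The change was -4.04 ± 0.54 (adjusted p = 0.0485), from a single probe that was above background on all 6 arrays. On days 0 and 2 it averaged -3.94 and -4.06. KCNJ16, a subunit of inwardly rectifying potassium channels, was well above background on none of the 3 day 14 arrays (0 of 3) and on each of the 3 day 7 arrays. It was at least 6.78-fold lower on day 14 (adjusted p = 0.0357), and it was above background on no array of day 0 or day 2. Its fitted change was -0.97 with normexp background correction and quantile normalization.

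SLC39A14 codes for a membrane importer of zinc, iron and manganese. It had -1.32, -1.40 and -1.27 on day 14, against 0.29, 0.62 and 0.18 on day 7. The cows lay close together, with a SD of 0.07 on day 14 and 0.23 on day 7, and the days were separate. The change was -1.69 ± 0.15 (adjusted p = 0.0209). A further probe of the gene fell too (-1.87 ± 0.25, adjusted p = 0.0485), and the remaining probes had -1.03 and -0.79 and did not pass. FCGR2B, the inhibitory receptor for IgG on B cells and macrophages, had -2.00, -1.59 and -2.44 on day 14, against 0.05, 0.13 and -1.18 on day 7. Cow 3 had the lowest level on both days, and its day 7 value was still above all day 14 values. The change was -1.67 ± 0.22 (adjusted p = 0.0493), and a further FCGR2B probe fell by 1.83 on the log2 scale (adjusted p = 0.0418).

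BHLHE40, a transcriptional repressor of the circadian and hypoxia responses, had -1.22, -1.39 and -1.22 on day 14, against 0.94, 0.48 and 0.02 on day 7. The day 14 values were nearly the same in all 3 cows, and those of day 7 were spread wider, without overlap between the days. The change was -1.76 ± 0.20 (adjusted p = 0.0357), and the gene's other probe fell by 1.63. CRIM1, a transmembrane protein that binds bone morphogenetic proteins, had -4.65, -4.76 and -4.63 on day 14, against -2.17, -1.31 and -2.97 on day 7. The fall was 2.53 on the log2 scale (change -2.53 ± 0.34, adjusted p = 0.0485). A brighter probe described as CRIM1 fell by 2.05, with 2.50, 2.53 and 2.33 on day 14, against 4.55, 5.15 and 3.80 on day 7 (adjusted p = 0.0357).

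The last 3 named falls were smaller. TENT5A, a poly(A) polymerase that lengthens the tails of secreted-protein mRNAs, had 1.53, 1.26 and 1.42 on day 14, against 3.74, 2.73 and 2.67 on day 7 (change -1.64 ± 0.21, adjusted p = 0.0467). SLC2A10, a glucose transporter of the GLUT family, had -4.74, -4.23 and -5.20 on day 14, against -3.22, -2.98 and -3.32 on day 7 (-1.55 ± 0.21, adjusted p = 0.0493). The other probe of SLC2A10 had a change of -0.34 and did not pass. RPRD1A, a regulator of the RNA polymerase II tail, had -0.69, -0.30 and -0.51 on day 14, against 0.22, 0.77 and 0.69 on day 7 (-1.06 ± 0.14, adjusted p = 0.0493). In none of these 3 genes did the days overlap by the probe given. The remaining gene that fell, LOC783879, is described in the scanner files as GSTM1, a glutathione S-transferase that couples glutathione to toxic compounds. It had -2.67, -2.35 and -1.88 on day 14, against -0.20, -0.03 and 0.16 on day 7, and both its probes fell (-2.28 ± 0.23, adjusted p = 0.0324, and -2.33).

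ERP27, a non-catalytic member of the protein disulphide isomerase family in the endoplasmic reticulum, had the largest rise among the 6 genes called higher. It had -0.79, -0.69 and -1.35 on day 14, against -3.83, -3.27 and -5.24 on day 7. Cow 3 was lowest on both days and the days did not overlap. The change was 3.17 ± 0.30 (adjusted p = 0.0265), and the gene's other probe had 3.27 (adjusted p = 0.0549). PACSIN1, an adapter that bends membranes during endocytosis, had -1.03, -1.08 and -2.01 on day 14, against -3.64, -4.06 and -4.55 on day 7. Its change of 2.71 ± 0.22 had the smallest adjusted p of all probes (0.0188), shared with 1 unnamed probe. RGS11, which shortens G protein signals, had -1.71, -2.28 and -1.48 on day 14, against -5.02, -4.19 and -4.00 on day 7 (2.58 ± 0.35, adjusted p = 0.0493). Cow 1 was lowest on day 7 but not on day 14.

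SAT2, of the family of diamine acetyltransferases, had 0.56, 0.36 and 1.02 on day 14, against -0.88, -1.38 and -0.42 on day 7 (1.54 ± 0.17, adjusted p = 0.0357). Its other probe rose by 1.70. STAG3, known as the meiotic subunit of cohesin, had -1.76, -1.16 and -1.53 on day 14, against -2.92, -2.86 and -3.24 on day 7 (1.52 ± 0.19, adjusted p = 0.0431). Of its other probes 1 rose by 1.17 and 1 had -0.17 and did not pass. CCDC96, a coiled-coil domain gene, had -2.59, -2.62 and -3.21 on day 14, against -3.90, -4.27 and -4.64 on day 7 (1.46 ± 0.17, adjusted p = 0.0357). In all of these rises every day 14 value lay above every day 7 value.

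**Figure D2:**
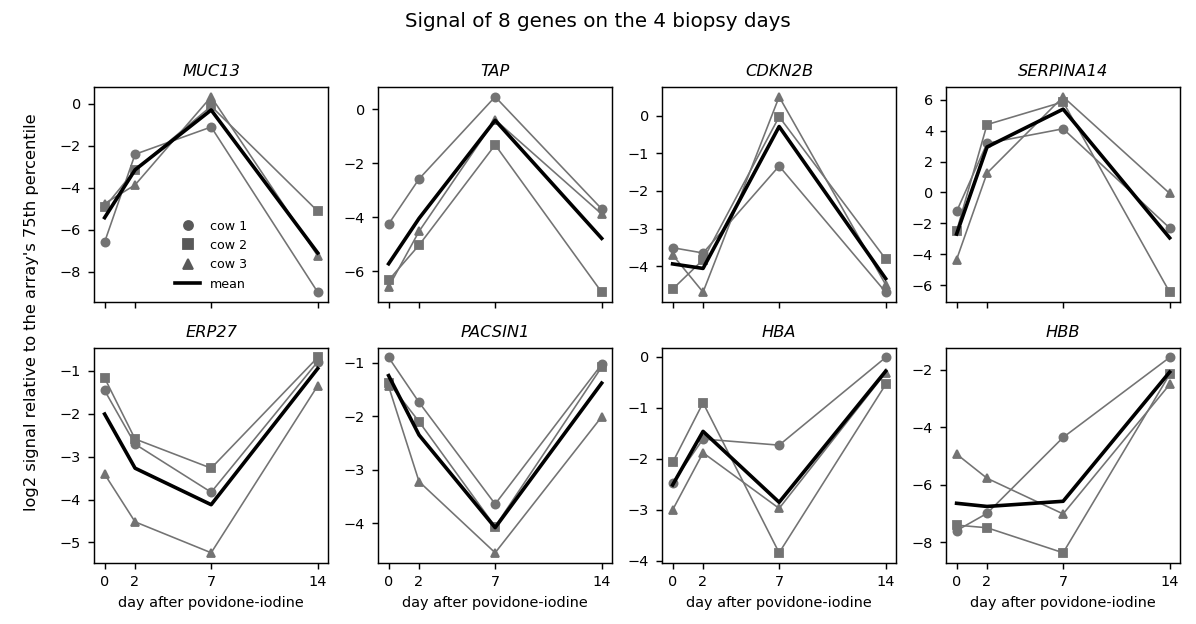
Log2 signal relative to the array's 75th percentile (vertical axes, one scale per gene) on days 0, 2, 7 and 14 after povidone-iodine (horizontal axes) for 8 genes; markers joined by grey lines are cows and the black line is their mean. MUC13, TAP, CDKN2B and SERPINA14 peaked on day 7, ERP27 and PACSIN1 had their lowest mean on day 7, and HBA and HBB were highest on day 14.

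The levels of these genes on the earlier days put the comparison in context. ERP27 averaged -2.01, -3.27, -4.12 and -0.95 on days 0, 2, 7 and 14, and PACSIN1 averaged -1.24, -2.35, -4.08 and -1.38. SLC39A14 averaged -2.24, -1.12, 0.36 and -1.33, so that its day 14 mean lay between those of day 0 and day 7. In the same limma fit, day 7 against day 0 called 6100 probes (18.2%) and day 14 against day 0 called 39 (0.116%). For MUC13 the change was -1.69 on day 14 over day 0 (adjusted p = 0.266) and 5.13 on day 7 over day 0 (adjusted p = 0.00655). For CDKN2B the same changes were -0.39 (adjusted p = 0.704) and 3.65 (adjusted p = 0.00586), and for PACSIN1 they were -0.14 (adjusted p = 0.751) and -2.85 (adjusted p = 0.0017). These comparisons share arrays with each other and with day 14 against day 7, so they are given side by side as levels. A change that misses the threshold against day 0 does not show that the level was that of day 0.

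Some genes were called through a probe other than their brightest, 11 symbols in all, and their probes did not always give the same call. TIMP1, the tissue inhibitor of metalloproteinases 1, had -0.45, -0.12 and -0.63 on day 14, against 2.19, 1.77 and 1.06 on day 7 by its called probe (change -2.07 ± 0.27, adjusted p = 0.0485). Its brightest probe had a change of -1.89 and an adjusted p of 0.0508, just outside the threshold. SMOC2, a matricellular calcium-binding protein, fell by 2.02 and 1.61 by 2 probes, and its other probes did not pass. DPP4, a cell surface peptidase, fell by 2.92 (adjusted p = 0.0467) and was above background on 1 of 3 arrays of day 14. By their called probes SYT1, a calcium sensor of vesicle release, fell by 3.25, HS3ST2, a heparan sulphate sulphotransferase, by 2.64, and PGM3, an enzyme of UDP-N-acetylglucosamine synthesis, by 1.12. Those of SYT1 and HS3ST2 were above background on 2 of 3 arrays of day 14. The other probes of HS3ST2 had changes of -2.63 and -0.12 and did not pass. On the rising side the called probe of TDRKH, a Tudor domain gene of the piRNA pathway, rose by 1.97, that of CYP2U1, a fatty acid hydroxylase of the P450 family, by 1.29, and that of BEX5 by 1.26. These were chosen from the called probes after their values were seen.

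Since only 6 genes rose, the next genes of that direction are given as values without a call, and their adjusted p ran from 0.0508 to 0.0549. PDIA2, a protein disulphide isomerase known from the pancreas, had -3.39, -2.99 and -2.39 on day 14, against -7.88, -6.60 and -5.70 on day 7. Only 1 of 3 day 7 arrays measured this probe well above background. Its log2 change was 3.80, with 1.25 as the lowest over the settings run, and the gene's other probes had 0.53 and 3.59. GSTT2, a theta-class glutathione S-transferase, had 0.71, -2.32 and -1.46 on day 14, against -1.89, -5.33 and -4.35 on day 7. The GSTT2 ranges of the days overlapped because the cows differed, and the gene was higher on day 14 in each of the 3 cows. MICAL2, an enzyme that oxidises actin, had 0.15, -0.29 and -0.05 on day 14, against -1.32, -1.29 and -1.79 on day 7, and C1QTNF12, a secreted C1q-like factor, had -3.31, -2.68 and -3.34 on day 14, against -5.20, -5.29 and -5.03 on day 7. KCNH6, a potassium channel gene, and TAS1R1, a subunit of the umami taste receptor, were not well above background on any day 7 array. They were at least 3.79-fold and 5.06-fold higher on day 14 under the main processing. With normexp background correction and quantile normalization the fitted log2 change of KCNH6 was 0.76. The lowest fitted log2 change of TAS1R1 over the settings run was 0.9. The remaining members were B3GAT2 (1.86), CYP2U1 by its brightest probe (0.91) and BEX5 by its brightest probe (1.39), all log2 changes. B3GAT2 was well above background on 1 of 3 day 7 arrays, and its lowest change over the settings run was 0.51.

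Gene lists put these calls beside the pathways of injury and repair. Of the pathway lists only the antimicrobial and the cell cycle arrest lists held a gene past the threshold, TAP and CDKN2B. Over all 12906 genes the median change was -0.01, with 6539 changes negative and 6367 positive. At an unadjusted p under 0.05, 1286 genes (9.96%) had a negative and 1125 (8.72%) a positive change. Counts of lower and higher genes below use that same unadjusted limit. No gene in them rose or fell by the adjusted test unless it is said.

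Complement genes had the lowest median, -1.26 over 22 genes tested, with 21 of 22 changes negative. At the unadjusted limit 12 were lower and 1 was higher. C3, the central component, had 1.48, 1.08 and 0.83 on day 14, against 4.68, 3.54 and 1.97 on day 7 (change -2.27 ± 0.54, adjusted p = 0.104). The days did not overlap, and cow 1 had both the highest day 7 level and the widest step. CD55, which protects host cells from complement, had -2.10, -2.15 and -1.96 on day 14, against -1.84, -0.54 and -0.42 on day 7 (-1.13, adjusted p = 0.112). C5, the start of the membrane attack pathway, was the exception, with -2.70, -1.13 and -0.50 on day 14, against -6.26, -3.59 and -4.33 on day 7 (3.29 ± 0.89, adjusted p = 0.131, chosen after its value was seen).

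Antimicrobial and acute phase genes had a median of -0.92 over 22 genes, with 7 lower and 0 higher at the unadjusted limit, TAP among them. Genes of acute inflammation had -0.73 over 28, with 8 lower and 1 higher. CCL2, a chemokine that draws monocytes, had 0.15, 0.62 and -0.15 on day 14, against 2.31, 3.27 and 1.16 on day 7 (-2.04 ± 0.44, adjusted p = 0.0849). SELP, the P-selectin of platelets and endothelium, had 1.54, 1.62 and -0.05 on day 14, against 2.45, 3.25 and 1.67 on day 7 (-1.42, adjusted p = 0.136). CCL2 did not overlap between the days, and neither did SELP, though the highest day 14 value of SELP was within 0.1 of the lowest of day 7. Interferon-stimulated genes had a median of -0.20 over 21, with 1 lower and 1 higher, CXCL9 at -1.34 and GBP4 at 1.63. Antigen presentation genes had -0.22 over 14, with 1 lower (BOLA-DRA, -0.82) and 0 higher, and TAP1, the peptide transporter of that pathway and no relative of the defensin gene TAP, had 0.55.

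Matrix-cutting enzymes and their inhibitors had a median of -0.87 over 25 genes, with 11 lower and 2 higher. TIMP1 by its brightest probe had 2.10, 2.24 and 1.90 on day 14, against 4.42, 4.13 and 3.37 on day 7. TIMP2, a second inhibitor of the same family, had 5.48, 5.34 and 5.61 on day 14, against 6.32, 6.50 and 6.66 on day 7 (-1.02 ± 0.15, adjusted p = 0.0508). Both inhibitors had tight, separate groups and missed the threshold narrowly. Extracellular matrix genes had -0.22 over 30, with 4 lower and 0 higher. LOX, which cross-links collagen, had a change of -1.11 and FBLN1, a fibulin of basement membranes, had -0.51.

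Proliferation genes had mostly positive changes. Their median was 0.56 over 35 genes, 31 of 35 changes were positive, and at the unadjusted limit 10 were higher and 0 lower. CCNB1, the cyclin of mitotic entry, had 1.90, 1.16 and 1.60 on day 14, against -0.53, 0.29 and -0.16 on day 7 (1.69 ± 0.36, adjusted p = 0.0818). MCM5, a subunit of the replicative helicase, had 1.72, 2.14 and 1.77 on day 14, against 1.06, 0.74 and 1.11 on day 7 (0.91, adjusted p = 0.183). The list's median by cow was 0.66, 1.07 and 0.13. The apoptosis and cell cycle arrest list, CDKN2B included, had a median of -0.12 over 18, with 3 lower and 2 higher.

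Steroid receptor genes and genes of the oestrogen phase of the cycle had a median of -0.88 over 18, with 5 lower and 1 higher. SERPINA14, the uterine serpin secreted by glands, had -2.30, -6.45 and -0.06 on day 14, against 4.12, 5.86 and 6.19 on day 7. Its change of -8.33 ± 1.62 was the largest in size of any gene tested, with an adjusted p of 0.0712 and a SD of 3.24 on day 14, against 1.12 on day 7. PGR, the progesterone receptor, had -1.20, -0.30 and -1.55 on day 14, against 0.61, -0.12 and 0.18 on day 7 (-1.24, adjusted p = 0.105). The list of luteal phase and uterine secretion genes, which also holds SERPINA14, had a median of 0.15 over 26, with 4 lower and 4 higher. LGALS9, a galectin, had -0.77 by its brightest probe (adjusted p = 0.0722) and -0.02 by its other probe. Prostaglandin genes had -0.31 over 18, with 5 lower and 1 higher, led by the thromboxane synthase gene TBXAS1 (-1.40) and the receptor gene PTGER2 (-1.45).

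Cholesterol and lipid synthesis genes had a median of -0.49 over 26, with 9 lower and 0 higher. SQLE, the squalene epoxidase, had 2.18, 1.99 and 2.20 on day 14, against 2.76, 3.67 and 3.62 on day 7 (-1.23 ± 0.25, adjusted p = 0.0777). INSIG1, the sterol-sensing brake on that pathway, had -1.48 (adjusted p = 0.118). The list's median by cow was -0.06, -0.93 and -0.51. Oxidative stress genes had -0.18 over 24, with 5 lower and 0 higher, and the metallothionein genes led them. MT2A had -1.54, -1.60 and -1.24 on day 14, against 0.96, 1.22 and -0.03 on day 7 (-2.17 ± 0.35, adjusted p = 0.0549), and MT1A had a change of -1.50 (adjusted p = 0.0744). Metallothioneins are small proteins that bind zinc and copper.

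The other lists were close to the median of all genes. Chaperone genes had -0.20 over 22, with 4 lower and 0 higher, PDIA4, a disulphide isomerase of the endoplasmic reticulum, at -1.19 (adjusted p = 0.0549) and CRYAB at -1.51. Growth factor genes had -0.27 over 34, with 4 lower and 1 higher, with INHBA, an activin subunit, at -2.30. WNT7A, a Wnt ligand, was not well above background on any day 7 array and was at least 1.65-fold higher on day 14 (adjusted p = 0.157). Ion and water transport genes had 0.20 over 20, with 3 lower and 4 higher, and RHCG, an ammonia transporter, at -5.22 (adjusted p = 0.0685). Immediate early genes had -0.05 over 22, with 4 lower and 3 higher, FOSL1 at -2.67 and IER3 at -2.06. Stem and side population markers had -0.11 over 19, with 3 lower and 2 higher. CD44 had -1.15, and SUSD2, which in humans marks perivascular stem-like cells of the endometrium, had 3.64 (adjusted p = 0.145).

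**Figure D3:**
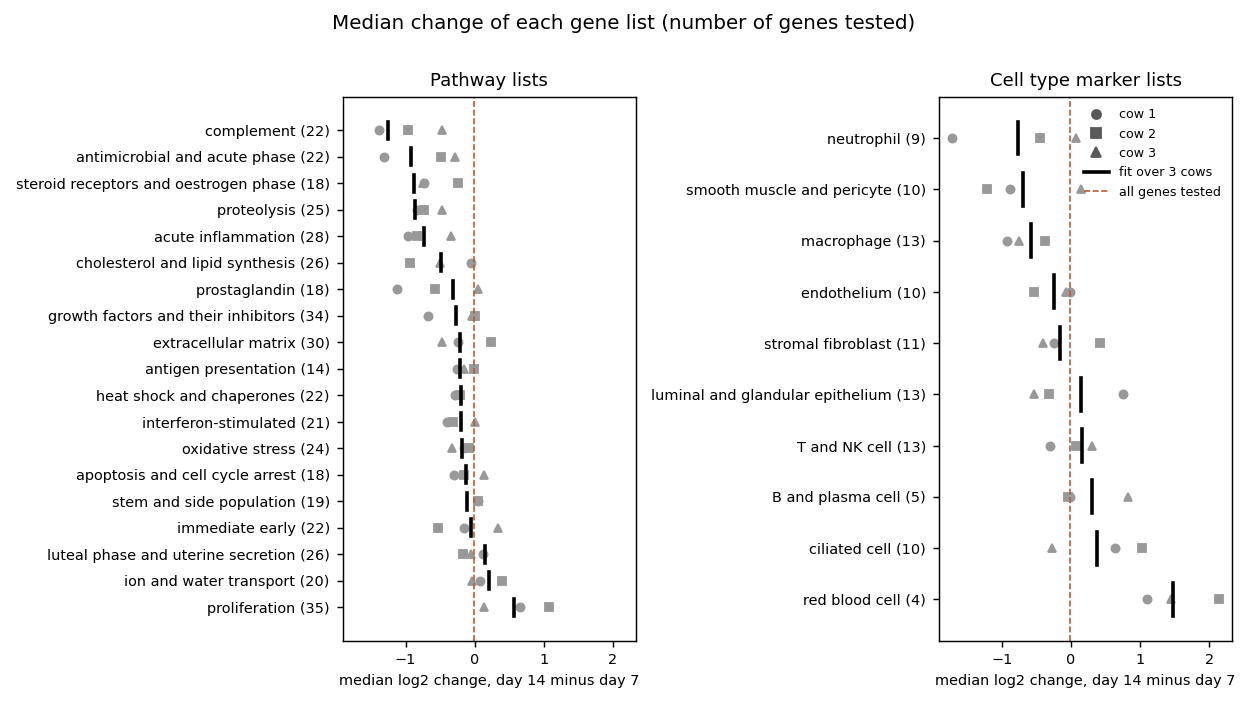
Median log2 change of each gene list, day 14 minus day 7 (horizontal axes), with the number of genes tested in brackets; black bars are medians of the fit over 3 cows, grey markers are medians of each cow's own change, and the dashed line is the median of all genes. Complement lay lowest at -1.26 and red blood cell markers highest at 1.48.

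No marker of a cell type passed the threshold. In bulk tissue fewer cells of a type and less RNA per cell cannot be told apart. Red blood cell markers had positive changes in all 4 members tested. HBA, alpha-globin, had -0.01, -0.54 and -0.31 on day 14, against -1.73, -3.84 and -2.97 on day 7 (2.56 ± 0.47, adjusted p = 0.0666). HBB, beta-globin, had -1.57, -2.16 and -2.51 on day 14, against -4.35, -8.36 and -7.01 on day 7, with 1 of 3 arrays of day 7 above background (4.49 ± 0.93, adjusted p = 0.0777). Both globins were separate between the days, and neither passed the threshold. Of the 7 listed markers 4 were tested, with a median change of 1.48, which was 0.41 over the 3 above background on all 6 arrays, and AHSP, which stabilises alpha-globin, had 0.26. The list's mean level, centred per gene, lay between 0.88 and 1.11 on day 14 and between -1.85 and -0.16 on day 7. The part of blood in the other results was not tested.

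Neutrophil markers had a median of -0.77 over 9 genes, with 2 lower and 0 higher. The list's median by cow was -1.72, -0.45 and 0.07, and it was -0.19 without cow 1. PADI4, the enzyme that citrullinates histones in neutrophils, had -5.48, -4.53 and -5.34 on day 14, against -3.76, -3.09 and -4.74 on day 7 (-1.26, adjusted p = 0.0961). S100A12, a calcium-binding alarmin, had -0.33, 0.31 and -1.07 on day 14, against 1.84, 1.19 and -0.23 on day 7 (-1.30, adjusted p = 0.156). The list's mean centred level overlapped between the days, with a range of -0.73 to 0.22 on day 14, against -0.71 to 0.94 on day 7. Macrophage markers had -0.58 over 13, with 11 of 13 changes negative, and 2 lower and 2 higher at the unadjusted limit. The pair with the smallest p, GPNMB and SPIC, were the only positive ones. GPNMB, a glycoprotein of phagocytes that clear debris, had 2.67, 3.28 and 2.68 on day 14, against 2.04, 0.58 and 0.27 on day 7 (1.92 ± 0.42, adjusted p = 0.0857). SPIC, a transcription factor of macrophages that recycle iron from red cells, had -3.60, -3.67 and -4.50 on day 14, against -4.89, -4.92 and -4.71 on day 7 (0.92, adjusted p = 0.121). The days did not overlap for either gene.

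T and NK cell markers had a median of 0.16 over 13, with 0 lower and 1 higher (CD3E, 0.77), and B and plasma cell markers had 0.30 over 5, with 0 lower and 0 higher. Epithelial markers had 0.15 over 13, with 1 lower and 2 higher. KRT18, a keratin of simple epithelium, had 3.40, 3.42 and 2.99 on day 14, against 1.61, 2.59 and 2.06 on day 7 (1.19 ± 0.26, adjusted p = 0.084), and SOX17, a transcription factor of the glands, had 1.58. Ciliated cell markers had 0.37 over 10, with 0 lower and 3 higher, FOXJ1, the regulator of motile cilia, at 1.15. Stromal fibroblast markers had -0.16 over 11, smooth muscle and pericyte markers -0.69 over 10 and endothelial markers -0.25 over 10, with 1, 1 and 2 genes lower and 0 higher. How far the makeup of the biopsies bears on TAP, MUC13 and the other calls was not tested.

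A panel of 26 genes that stood apart on day 7 in an earlier account of these data shows how the cows went on to day 14. These genes were chosen for their day 7 levels, so their values are a description and carry no test of a return. SUSD2 had 4.04, -0.29 and 4.47 on day 14, against -1.17, -1.19 and -0.32 on day 7. PRODH, a proline-degrading enzyme, had 3.25, -2.31 and 2.90 on day 14, against -1.82, -2.46 and -2.79 on day 7. CRIPTO, a co-receptor of the Nodal pathway, had 3.1, -4.34 and 4.46 on day 14, against -1.98, -2.62 and -0.77 on day 7. In these 3 genes cows 1 and 3 were far above their own day 7 level on day 14, while cow 2 was not.

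REG4, a secreted lectin of regenerating mucosa, had -2.97, 2.05 and -5.67 on day 14, against 3.59, 4.35 and -0.04 on day 7. OXTR, the oxytocin receptor that drives uterine prostaglandin release, had 0.45, 3.00 and -0.06 on day 14, against 3.33, 3.61 and 1.33 on day 7. Cow 2 stood highest on day 14 in both. RHCG had -5.96, -0.93 and -5.55 on day 14, against -0.95, 1.65 and 2.52 on day 7, and here cow 2 had the highest day 14 level as well. PDZK1, a scaffold protein of the apical membrane, had 3.95, -2.64 and 3.04 on day 14, against -1.19, -0.40 and 2.34 on day 7.

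Some panel genes moved in the same direction in 3 of 3 cows, by differing amounts. CHI3L1, a chitinase-like glycoprotein of inflamed tissue, had -5.27, -4.48 and -3.29 on day 14, against 1.04, -0.78 and -1.11 on day 7 (adjusted p = 0.0549). CCL19, a chemokine for T cells and dendritic cells, had -5.08, -3.98 and -1.82 on day 14, against -0.65, 0.39 and -0.47 on day 7. COLEC11, a collectin, had -3.24, -4.03 and -4.70 on day 14, against -5.43, -6.14 and -7.60 on day 7. These 3 genes did not overlap between the days by the probes given. COLEC11 was well above background on 1 of 3 day 7 arrays. Its log2 change was 2.40, and the lowest over the settings run was 0.61. The other probe of CCL19 had a change of -0.83, against -3.38 by the probe given. HP, haptoglobin, an acute phase protein that binds free haemoglobin, had -5.85, -6.91 and -3.79 on day 14, against -4.14, 1.88 and -2.01 on day 7, with overlapping ranges and a day 7 spread of 3.05 (SD). MMP7, a protease of glandular epithelium, had -2.83, 0.00 and -0.95 on day 14, against 3.11, 4.53 and 0.29 on day 7, with all day 14 values below all of day 7. DMBT1, a mucosal scavenger receptor, had a change of -2.30, and TEX29, not well above background on any day 7 array, was at least 2.30-fold higher on day 14. The values of the panel genes not described stand in the plot of the panel.

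**Figure D4:**
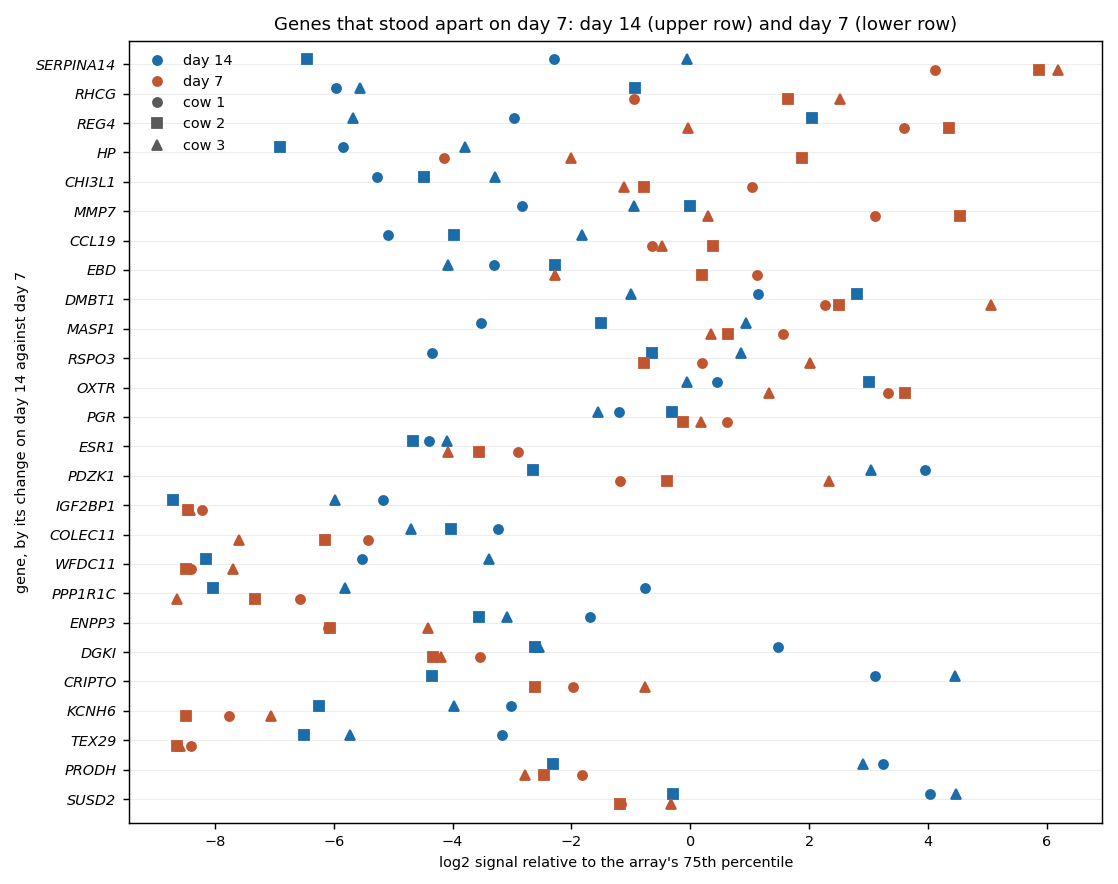
Log2 signal relative to the array's 75th percentile (horizontal axis) of 26 genes that stood apart on day 7, sorted by their change with the lowest at the top; in each row blue markers are day 14 (upper), orange markers are day 7 (lower), and marker shapes are cows. SERPINA14 has the widest gap, and in SUSD2, PRODH and CRIPTO the square of cow 2 on day 14 lies apart from the other cows and near the day 7 markers.

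Across the panel the day 14 level lay nearer to the cow's own day 7 level than to its day 0 level for 3 of 26 genes in cow 1, 21 of 26 in cow 2 and 15 of 26 in cow 3. Over all 33539 probes the same share was 40.1, 53.6 and 60.5%. Each cow changed by a like amount between the days: 14.3 to 15.8% of its probes differed by at least 2-fold, with median absolute changes of 0.38, 0.40 and 0.34. Across probes, each cow's changes correlated with those of another at 0.372 (cows 1 and 2), 0.311 (1 and 3) and 0.205 (2 and 3). Probes on an array are not independent, so these values only describe the arrays. In 3 of 3 cows 14103 of 33539 probes (42.0%) moved the same way.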

How the data were processed

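Total RNA of 12 endometrial biopsies was hybridised to single-colour arrays. The deposited scanner files hold processed intensity per spot. Per the file headers they came from Agilent Feature Extraction 11.5.1.1, while the submitters' processing notes name release 10.5.1.1. The deposited value table is on a log2 scale, and the sources used here do not say how the authors made it. Each table column matched 1 array with a correlation of 1.0 (next best at most 0.5197, largest median absolute difference 0.00229) after scaling to the 75th percentile and centring of each probe on its median over the arrays. GEO links the matched file to that same sample in only 2 of 12 cases, and samples were named by the table.

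Intensities were taken to log2, and each array's 75th percentile over non-control probes was subtracted. Beside 1417 control spots, which were left out, the array holds 43653 probes. Of these, 31 had outlier flags and were dropped, and 33539 that were well above background on at least 3 of 12 arrays were tested. Names came from accessions and symbols in the files through a RefSeq table of another assembly, used for names only (20595 probes by their own accession, 1607 by another, 9849 by a current symbol, 372 by an older one, 11230 kept the file's name). Coordinates are those of the files. limma 3.58.1 (R 4.3.3) was fitted to the 4 days together, on 12 arrays, with a term for day and a block for cow (residual degrees of freedom 6, prior 2.33), two-sided, with Benjamini-Hochberg adjustment over all probes at 0.05. The pairing rests on the design text. Deviations of the same cow on days 14 and 7 correlated at 0.256, 0.336 and 0.407.

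A gene is the brightest probe of its symbol. Named were the called genes that moved the same way in 3 cows and were above background on all arrays of the brighter day, the next genes by p to fill a short direction to 15, the leading members of each list, and a panel of 26 genes known for day 7. Where a probe was above background on no array of the dim day, a bound is given: the bright day's mean against the higher of the probe's own signal and the lowest signal above background. The comparison, the lists and the panel were chosen with earlier results of these data known. The fit was checked on simulated data, and its alternatives (scaling, background correction, filter, weights, block, left-out cows, file links) are in the closing section.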

Additional observations from a re-analysis of the deposited data

How the results depend on the processing

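The counts of calls depended on the setting. No named called gene turned its direction in any of the 12 or 13 settings run for it under the table's names. These genes were chosen to move the same way in 3 of 3 cows, so leaving out a cow could not turn them. Of these 17 genes, 0 passed the threshold without cow 1, without cow 2 or with only the 6 arrays of days 7 and 14. Under normexp and quantile normalization 7 called genes had changes over 1.5 times smaller: MUC13 (-3.72), TAP (-2.78), KCNJ16 (-0.97), CRIM1 (-1.57), SLC2A10 (-0.78), RGS11 (1.59) and CCDC96 (0.89). Against 49 probes and 18 genes, limma called 18 and 8 with no replicate block (the fit that drops the pairing by cow). It called 32 and 12 with quantile scaling, and 457 and 205 with normexp and quantile normalization. The counts were 7 and 4 with no filter, and 178 and 72 among probes above background on all 6 arrays. On the value table as deposited they were 49 and 18. Without the day 2 array of cow 3 they were 51 and 18, but only 31 of these probes and 13 of these genes were among the reported ones. With array weights 9411 probes and 3738 genes were called, but the weights had not converged, and with weights estimated gene by gene, an alternative chosen after seeing the data, 2301 and 931. Under both, all 49 probes remained. With only the 6 arrays of days 7 and 14 it called 0 and 0 (5239 probes and 2018 genes at an unadjusted p under 0.05), where fewer arrays enter the fit. Leaving out a cow gave 0 to 142 probes and 0 to 55 genes: 0 without cow 1 or cow 2 (935 and 1379 genes at an unadjusted p under 0.05), 142 without cow 3. With the samples linked to the scanner files, 215 probes and 100 genes were called, and 0 of the reported ones were among them. By the mean of all kept probes of a symbol 11 genes were called. The cause of the other shifts was not tested. The change of PDZK1, reported as 1.20, ran from -0.77 without cow 1 (a reversal) to 2.92 without cow 2 when a cow was left out. The list medians kept their sign in 13 of 13 settings except for growth factors, luteal genes, ion transport, immediate early genes, stem markers, epithelium and stroma. That of complement lay between -1.43 and -0.72 and that of proliferation between 0.20 and 0.84. Probes near background have only bounds, and these hold for the main processing.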
